A study of Mus musculus with 8 samples.

Results

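The data compare CD8+ T cells that lack Cd69 with wild-type cells, over both sorted subsets at once. All 4 libraries titled as Cd69 knockout were set against all 4 titled as wild type, which takes in 8 of the 8 libraries of the series, with the sorted subset as a covariate. All cells were CD8+ T cells from BALB/c mice, bound the AH1 tetramer, and were sorted live on a FACSAria III. AH1 is an epitope of the envelope protein of murine leukaemia virus, so the tetramer picks out T cells of 1 specificity. The 4 groups, with 2 libraries each, were wild-type stem-like, wild-type term diff (written term-diff here), Cd69-/- stem-like and Cd69-/- term-diff. The labels give neither how the Cd69-/- allele was made nor in which strain, and they do not give the tumour, the age or number of mice, the gates, or whether libraries share a mouse. P-values therefore measure the spread between these libraries, which may be technical in part.

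CD69 is a C-type lectin-like receptor that appears on T cells within hours of activation. It binds the sphingosine-1-phosphate receptor S1PR1 and pulls it from the surface, which keeps the cell from leaving tissue, and it is a standing marker of tissue-resident T cells. In tumours, antigen-specific CD8+ T cells include a self-renewing stem-like pool that depends on the transcription factor TCF1, encoded by Tcf7, and a terminally differentiated pool with high TIM-3, encoded by Havcr2, and high granzyme. The Cd69 gene lies in the natural killer gene complex, a run of lectin-like receptor genes that includes the NKG2 (Klrc) and Ly49 (Klra) families.

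Levels are FPKM (fragments scaled for transcript length and for depth) as the authors deposited them. Differences are Cd69-/- minus wild type on the log2(FPKM + 1) scale ± standard error, from an additive limma model over 8 libraries with 5 residual degrees of freedom, and understate the change of genes at low levels. "Rose" and "fell" mark a Benjamini-Hochberg adjusted p of at most 0.05 over 9782 genes tested. No counts were given. The confidence intervals of the FPKM imply 2055400 to 2591060 fragments per library. Small RNA took 77.2% to 84.1% of the summed FPKM in the 4 Cd69-/- libraries and in the other 2 wild-type libraries, but 62.5% in wild-type stem-like library 2 and 55.1% in wild-type term-diff library 2. FPKM are scaled for length, and of implied fragments small RNA took only 0.163% to 0.680%. By fragments, wild-type stem-like library 2 (0.398%) was close to Cd69-/- stem-like library 1 (0.395%). A low small RNA share below means the share of summed FPKM. The subset labels matched Tcf7, which was at 40.6 to 64.2 FPKM in the 4 stem-like libraries and at most 0.755 FPKM in the 4 term-diff libraries.

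Cd69 fell, and it had the smallest p of all genes tested. In wild type it was at 22.5 and 23.4 FPKM in stem-like and at 10.4 and 12.9 FPKM in term-diff libraries. Without the gene, levels were 3.69 and 2.42 FPKM in stem-like and 2.21 and 2.43 FPKM in term-diff libraries. The 4 Cd69-/- libraries thus lay below all 4 wild-type libraries (-2.25 ± 0.16, adjusted p = 0.00143). The remaining 27 to 44 implied fragments per Cd69-/- library are a gene-level total, and which exons they cover was not given. The fall was -2.58 in stem-like and -1.93 in term-diff cells (unadjusted p of the difference 0.0266, adjusted p = 0.542).

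Beside Cd69, 33 genes passed the threshold. In all, 34 of 9782 genes differed by genotype (0.348%), of which 15 rose (0.153% of genes tested) and 19 fell (0.194%). At an unadjusted p under 0.05 there were 1084 (11.1%), 641 of them higher (6.55%) and 443 lower (4.53%) in Cd69-/- cells. The median difference of all genes was 0.00 and the median standard error 0.12. Of the 34, 13 differed by at least 1 on the log2 scale, 5 higher and 8 lower. In all 34, both Cd69-/- libraries lay on the same side of both wild-type libraries within each subset, which held for 972 of all genes tested (9.94%), 575 higher (5.88%) and 397 lower (4.06%). In 21 of the 34 the 4 Cd69-/- libraries did not overlap the 4 wild-type libraries even with subsets pooled (3.07% of genes tested). The calls and these separations rest on the same values, so the separations are no further support. None of the 34 was a small RNA gene. Calls were sensitive to single libraries: 10 genes kept theirs in each of the 8 fits that left out 1 library (Cd69, 2610005L07Rik, C530028O21Rik, Erdr1, G530011O06Rik, Mmd, Pkp4, 6820431F20Rik, Mrc2 and Ikzf2). Without both wild-type libraries of low small RNA share 11 genes passed, 9 of them among the 34.

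**Figure D1:**
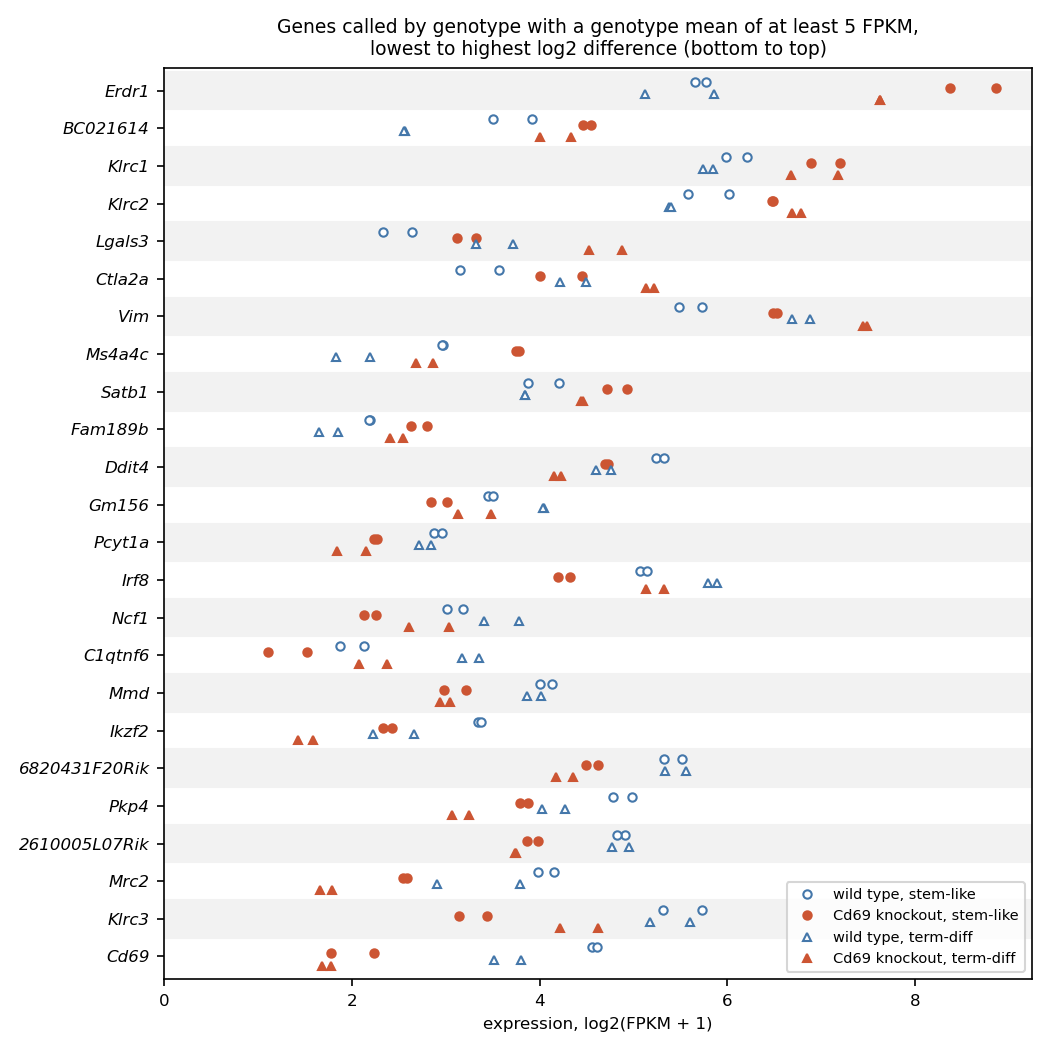
Expression, log2(FPKM + 1), of the 24 called genes with a genotype mean of at least 5 FPKM, 1 gene per line and 1 point per library, ordered by the difference between genotypes. Within each subset the 2 Cd69-/- libraries (filled) lie on 1 side of the 2 wild-type libraries (open) for every gene shown, with Cd69 at one end and Erdr1 at the other.

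The lectin-like receptors next to Cd69 moved in both directions. Klrc1 (NKG2A, which inhibits) and Klrc2 (NKG2C, which activates) rose by about 1 on the log2 scale in Cd69-/- cells, whereas Klrc3 (NKG2E) and Klra3 (the Ly49C receptor) fell. NKG2 chains reach the surface as pairs with CD94, encoded by Klrd1. The promoters of Klrc2 and Klrc3 are shown because these adjacent genes went opposite ways with almost the same upstream sequence. Both are the 250 bases before the most upstream RefSeq start of each gene (GRCm38.p6, minus strand, printed 5′ to 3′), for Klrc2 at chr6:129660597-129660846 and for Klrc3 at chr6:129643289-129643538. Within the stretch they share, capitals mark mismatched bases and, in Klrc3, 1 base opposite a gap. The 41 bases of Klrc2 and 40 of Klrc3 outside that stretch were not aligned and are in lower case.
Klrc2: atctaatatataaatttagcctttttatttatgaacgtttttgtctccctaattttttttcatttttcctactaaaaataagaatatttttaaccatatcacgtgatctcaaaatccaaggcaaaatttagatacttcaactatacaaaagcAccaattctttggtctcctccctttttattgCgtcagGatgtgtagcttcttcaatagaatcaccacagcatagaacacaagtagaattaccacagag
Klrc3: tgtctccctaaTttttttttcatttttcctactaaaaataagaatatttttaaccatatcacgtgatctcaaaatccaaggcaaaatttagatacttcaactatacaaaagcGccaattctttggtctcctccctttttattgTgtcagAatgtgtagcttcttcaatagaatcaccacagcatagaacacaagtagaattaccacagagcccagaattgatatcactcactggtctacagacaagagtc
Over the stretch they share, offset by about 40 bases because the starts differ, they matched at 206 of 210 aligned positions, with 3 mismatches and 1 gap. The RUNX letters TGTGGT, searched on both strands, occurred 2 times in the windows of Klrc2 and Klrc3, whose shared stretch makes this 1 observation, and 1 time in that of Klrc1. Of 32851 windows of the same length, 14.1% hold them at least once and 1.27% at least 2 times. The E-box letters CACGTG occurred 1 time in Klrc2 and Klrc3 and not in Klrc1 (6.02% of windows), and the AP-1 letters TGANTCA occurred in none of these 3 windows (6.75%). The motifs do not overlap one another in their letters.

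Klrc1 was at 73.2 and 62.1 FPKM in wild-type stem-like, 146 and 117 in Cd69-/- stem-like, 56.7 and 52.6 in wild-type term-diff and 144 and 101 in Cd69-/- term-diff libraries. The lowest Cd69-/- library was above the highest wild-type library (1.04 ± 0.14, adjusted p = 0.0224). Klrc2 was at 63.9 and 46.8 FPKM in wild-type stem-like, 87.9 and 88.8 in Cd69-/- stem-like, 40.5 and 41.2 in wild-type term-diff and 109 and 102 in Cd69-/- term-diff libraries (1.02 ± 0.16, adjusted p = 0.0379). Its Cd69-/- libraries were also all above the wild-type ones, with the wider gap in term-diff cells (1.35 against 0.68 in stem-like, unadjusted p of the difference 0.0198). Klrc3 went from 52.0 and 38.9 FPKM in wild-type stem-like to 7.80 and 9.83 in Cd69-/- stem-like, and from 47.7 and 35.2 in wild-type term-diff to 23.6 and 17.6 in Cd69-/- term-diff libraries (-1.60 ± 0.26, adjusted p = 0.0396). Here the stem-like gap was the wider (-2.24 against -0.97, unadjusted p of the difference 0.00328), and no Cd69-/- library reached a wild-type one. Klra3 was at 1.35 to 5.07 FPKM in the 4 wild-type libraries and at 0.107, 0.000, 0.000 and 0.0586 FPKM in the 4 Cd69-/- libraries (-1.87 ± 0.23, adjusted p = 0.0135).

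Among transcripts of the GENCODE M21 annotation, 23.1% of all 76-base stretches of Klrc3, 24.5% of Klrc1 and 11.2% of Klrc2 also occur in another gene, each time another of these 3, and 6.07% of those of Klra3 occur in Klra9, Klra10 or Klra11-ps. Reads are 76 bases long, so part of the levels of these genes depends on how the authors' counting divided shared reads, which was not given. The values are uncertain at least to that extent. How far these genes in BALB/c mice differ in sequence from the mm10 reference, and whether that moved their levels, was not tested. The Klrc1 call ended without wild-type stem-like library 2, Cd69-/- stem-like library 1, either wild-type term-diff library or Cd69-/- term-diff library 1 (adjusted p from 0.0562 to 0.0790). That of Klrc2 ended without any single library other than wild-type stem-like library 1 (0.0591 to 0.146), that of Klrc3 without any but wild-type term-diff library 2 or Cd69-/- term-diff library 1 (0.0724 to 0.156), and that of Klra3 without Cd69-/- term-diff library 2 (0.0518).

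Of 26 lectin-like receptor genes listed, 11 were tested. Of these, Klra3, Klri1 and Klra7 reached 1 FPKM only in wild-type libraries, and Klra1 only in Cd69-/- libraries. The filter thus took them in through 1 genotype, and the list was chosen with earlier results known. Both can move the share called. Among the 11, 2 rose and 2 fell (36.4% of those tested, against 0.348% of all genes). These counts share sequence and location, and they moved with the scaling: median-of-ratios scaling left Klrc1 and Klra3 called (adjusted p = 0.0752 for Klrc2 and 0.0723 for Klrc3), quantile normalization left Klra3 alone (0.0901 for Klrc1, 0.0671 for Klrc2 and 0.0592 for Klrc3), and equal sums without small RNA added Klra1 (0.0433). The other 7 did not pass in the fit reported. Klrd1 was at 26.6 to 34.6 FPKM in wild-type and 40.4 to 73.6 FPKM in Cd69-/- libraries, without overlap (0.83 ± 0.15, adjusted p = 0.0638). Klra1, another Ly49 gene, had 1.13 ± 0.19 (adjusted p = 0.0523), from at most 0.300 FPKM in wild type to 0.834 to 2.49 FPKM. Klrk1, which encodes the activating receptor NKG2D, had 0.40 ± 0.10 (adjusted p = 0.194). Klri1, an inhibitory partner of KLRE1, had -0.76 ± 0.16 (adjusted p = 0.106), and Klre1 itself had 0.08 ± 0.16 (adjusted p = 0.890).

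**Figure D2:**
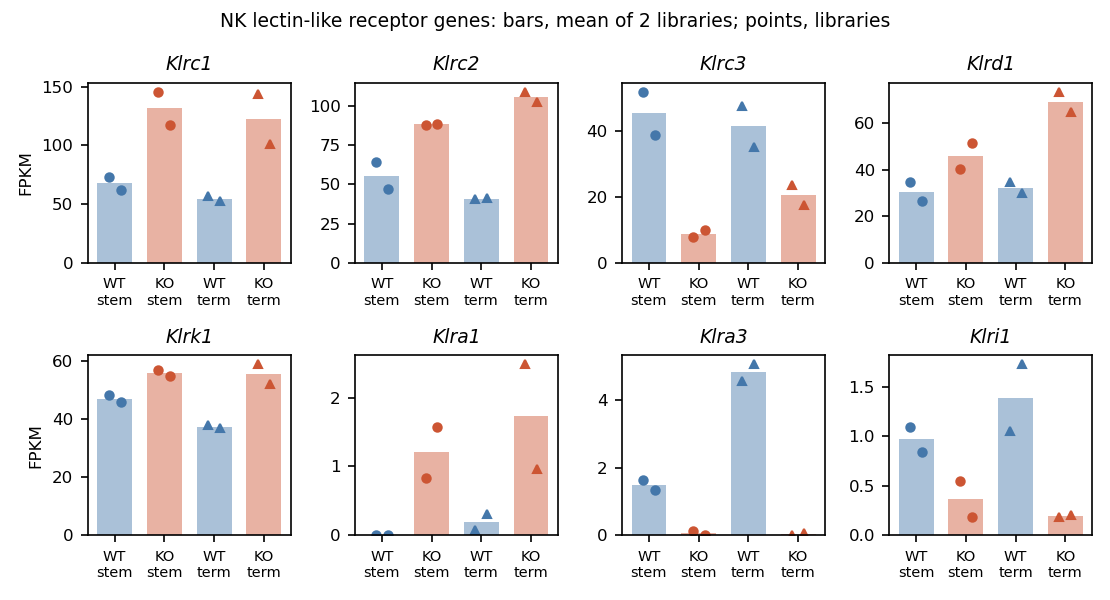
FPKM of 8 lectin-like receptor genes by group (WT, wild type; KO, Cd69-/-; stem, stem-like; term, term-diff), 1 panel per gene with its own axis from 0, bars for the mean of 2 libraries and points for libraries. Klrc1 and Klrc2 are above wild type in both subsets, and Klrc3 and Klra3 below.

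Several called genes were neighbours of Cd69. In the files Cd69 is at chr6:129267325-129275369 (mm10), and of 106 other genes tested within 10 Mb of it, 6 passed (5.66%): Klrc1 and Klrc2 rose and Klrc3, Gm156, Klra3 and C530028O21Rik fell. On the rest of chromosome 6, 0 of 358 genes passed, and on all other chromosomes 27 of 9317 (0.290%). Klrc3 starts 0.372 Mb from Cd69, Klrc2 0.389 Mb, Klrc1 0.408 Mb, Gm156 0.499 Mb and Klra3 1.06 Mb, so 5 of the 6 are on 1 side within little more than a megabase. The 0.684 Mb from the start of Klrc3 to that of Klra3 held 8 genes tested. Among them, Klra3, Klri1 and Klra7 reached 1 FPKM only in wild-type libraries. In all, 5 of the 8 passed. Of these 5, 1 stayed called without wild-type stem-like library 2, Cd69-/- stem-like library 1, wild-type term-diff library 1 or Cd69-/- term-diff library 2, and 2 or 3 without any other single library, while 0 of the 5 passed without the filter on low values or without the subset term. Klrc1, Klrc2 and Klrc3 share sequence, so they are not fully separate counts. C530028O21Rik lies 4.27 Mb to the other side and was named under the rule for genes near Cd69: it was at 2.63, 4.35, 3.43 and 4.56 FPKM in wild-type and 0.402, 0.127, 0.250 and 0.276 FPKM in Cd69-/- libraries (-1.89 ± 0.15, adjusted p = 0.00164). Gm156 was at 9.92 to 15.5 FPKM in wild-type and 6.17 to 10.2 FPKM in Cd69-/- libraries, which overlap when subsets are pooled (-0.64 ± 0.10, adjusted p = 0.0396), and its call ended without any single library (0.0592 to 0.156). The median absolute difference of the 106 genes was 0.13, against 0.11 over all genes. Whether distance to the targeted locus has a part in these differences was not tested.

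**Figure D3:**
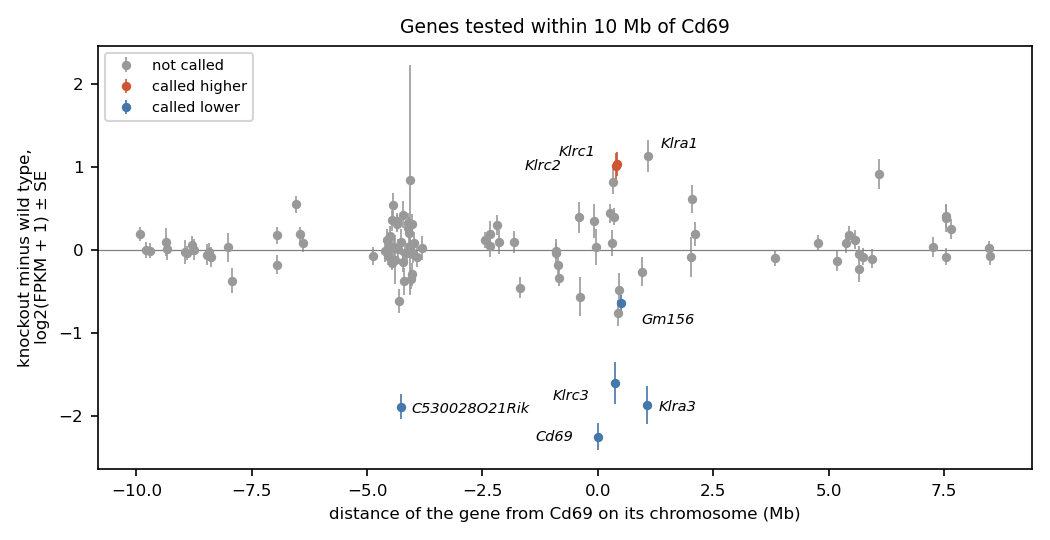
Difference between genotypes (log2(FPKM + 1), Cd69-/- minus wild type) of each gene tested within 10 Mb of Cd69, with its standard error as a vertical line, against its distance from Cd69 in Mb. The 6 called neighbours are marked, 5 of them within 1.06 Mb on 1 side.

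Among regulators of transcription, Ikzf2 and Irf8 fell and Satb1 rose. Ikzf2 encodes Helios, an Ikaros-family factor of regulatory and chronically stimulated T cells. It was at 9.12 and 9.40 FPKM in wild-type stem-like, 4.02 and 4.39 in Cd69-/- stem-like, 3.69 and 5.31 in wild-type term-diff and 2.01 and 1.69 in Cd69-/- term-diff libraries (-0.96 ± 0.11, adjusted p = 0.00879). Within each subset the genotypes did not overlap, with a difference of -0.98 in stem-like and -0.94 in term-diff cells. Irf8, an interferon regulatory factor, was at 32.6 and 34.4 FPKM in wild-type stem-like, 17.3 and 19.0 in Cd69-/- stem-like, 54.3 and 58.2 in wild-type term-diff and 39.0 and 34.1 in Cd69-/- term-diff libraries (-0.73 ± 0.10, adjusted p = 0.0174). Cd69-/- term-diff cells were thus at about the level of wild-type stem-like cells. The chromatin organiser Satb1 was at 13.3 to 17.4 FPKM in wild-type and 20.7 to 29.5 FPKM in Cd69-/- libraries, without overlap (0.70 ± 0.10, adjusted p = 0.0299). Sfmbt2, a Polycomb-group gene at low level, fell as well, from 0.961 to 1.94 FPKM in wild type to 0.0152 to 0.836 FPKM (-0.91 ± 0.12). It has means under 5 FPKM in both genotypes, as have the further genes marked so here, and these were named after their values were seen. The Irf8 call ended without wild-type stem-like library 2, wild-type term-diff library 2, Cd69-/- term-diff library 2 or either Cd69-/- stem-like library (0.0523 to 0.0766), that of Satb1 without any library but wild-type stem-like library 1 (0.0628 to 0.0970), and that of Sfmbt2 without wild-type stem-like library 2, Cd69-/- stem-like library 1, wild-type term-diff library 2 or either Cd69-/- term-diff library (0.0523 to 0.0709).

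Other called genes encode junction, membrane, cytoskeletal and secreted proteins. Pkp4, a plakophilin of cell junctions, fell: it was at 26.6 and 30.7 FPKM in wild-type against 13.7 and 12.8 in Cd69-/- stem-like, and 15.3 and 18.3 against 7.38 and 8.52 in term-diff libraries (-1.02 ± 0.10, adjusted p = 0.00252). Mrc2, the collagen receptor Endo180, was at 14.9 and 16.8 against 5.02 and 4.85 FPKM in stem-like and at 6.51 and 12.9 against 2.15 and 2.46 FPKM in term-diff libraries (-1.56 ± 0.17, adjusted p = 0.00623). Mmd, a membrane protein first described in maturing macrophages, was at 13.6 to 16.5 FPKM in wild-type and 6.64 to 8.31 FPKM in Cd69-/- libraries of both subsets (-0.96 ± 0.09, adjusted p = 0.00252). For Pkp4, Mrc2 and Mmd all 4 Cd69-/- libraries lay below all 4 wild-type libraries. Vim, the intermediate filament vimentin, rose: 43.9 and 52.1 against 91.3 and 88.5 FPKM in stem-like and 117 and 102 against 173 and 178 FPKM in term-diff libraries (0.79 ± 0.11, adjusted p = 0.0262). Lgals3, which encodes galectin-3, a lectin that binds galactosides, was at 4.04 and 5.22 against 7.71 and 9.03 FPKM in stem-like and 12.2 and 8.97 against 28.4 and 22.0 FPKM in term-diff libraries (0.96 ± 0.15, adjusted p = 0.0369). Both were also higher in term-diff than in stem-like cells, so pooled genotypes overlap although each subset is separated. Ctla2a, a cathepsin inhibitor (7.90 to 21.6 FPKM in wild type, 15.1 to 36.3 FPKM in Cd69-/-, 0.84 ± 0.13), and the membrane protein gene Ms4a4c (2.56 to 6.85 and 5.41 to 12.7 FPKM, 0.78 ± 0.10) rose, and C1qtnf6, a secreted C1q-like protein (2.65 to 9.21 and 1.15 to 4.20 FPKM, -0.86 ± 0.14), fell.

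With means under 5 FPKM in both genotypes, Siglec5, a sialic acid-binding lectin (0.148 to 1.19 FPKM in wild type, 1.14 to 3.95 FPKM in Cd69-/-, 0.95 ± 0.12), and Cnih2, a cornichon protein (1.29 to 1.59 and 2.96 to 3.71 FPKM, 0.81 ± 0.11), rose. Tmcc3, a membrane protein with coiled coils (2.92 to 6.28 and 1.38 to 3.55 FPKM, -0.72 ± 0.08), and Tanc2, a scaffold protein (1.19 to 2.32 and 0.308 to 1.11 FPKM, -0.76 ± 0.12), fell. The calls of Vim (0.0501 to 0.119) and Tanc2 (0.0724 to 0.157) ended without any single library, and that of Tmcc3 without wild-type stem-like library 2 (0.0514). The Lgals3 call ended without any library but wild-type stem-like library 2 or Cd69-/- stem-like library 1 (0.0759 to 0.123), that of Ctla2a without any but wild-type stem-like library 1 or Cd69-/- stem-like library 1 (0.0749 to 0.150), and that of C1qtnf6 likewise (0.112 to 0.156). That of Ms4a4c ended without wild-type stem-like library 2, Cd69-/- stem-like library 2 or Cd69-/- term-diff library 1 (0.0628 to 0.0716), that of Cnih2 without wild-type stem-like library 2, wild-type term-diff library 1 or Cd69-/- term-diff library 1 (0.0596 to 0.0709), and that of Siglec5 without wild-type stem-like library 2 or Cd69-/- term-diff library 1 (0.0528 and 0.0562). Of Ctla2a, 15.7% of 76-base stretches, and of Mmd 17.7%, occur in other genes.

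Among genes of metabolism and stress, Pcyt1a, Ddit4 and Ncf1 fell. Pcyt1a, the rate-limiting enzyme of phosphatidylcholine synthesis, fell from 5.57 to 6.78 FPKM in wild type to 2.58 to 3.82 FPKM (-0.72 ± 0.10, adjusted p = 0.0186). Ddit4, which encodes REDD1, an inhibitor of the growth kinase complex mTORC1, was at 36.8 and 39.2 against 25.4 and 24.9 FPKM in stem-like and 26.1 and 23.3 against 17.7 and 16.8 FPKM in term-diff libraries (-0.53 ± 0.08, adjusted p = 0.0369). It had the smallest difference of the 34. Ncf1, the p47phox subunit of the NADPH oxidase, was at 8.09 and 7.10 against 3.78 and 3.37 FPKM in stem-like and 12.8 and 9.63 against 7.17 and 5.11 FPKM in term-diff libraries (-0.84 ± 0.13, adjusted p = 0.0314). With means under 5 FPKM, Gm2a, the activator protein of GM2 ganglioside breakdown (1.19 to 2.50 FPKM in wild type and 2.39 to 3.96 FPKM in Cd69-/-, 0.64 ± 0.10), and Nudt22, a Nudix hydrolase (0.279 to 0.503 and 1.12 to 1.61 FPKM, 0.73 ± 0.10), rose. Nudt22 rested on 2 to 3 implied fragments in each wild-type library and 7 to 11 in each Cd69-/- library. The calls of Ddit4 (0.0580 to 0.156), Gm2a (0.0631 to 0.134) and Nudt22 (0.0580 to 0.107) ended without any single library. That of Ncf1 ended without any but wild-type term-diff library 2 or Cd69-/- term-diff library 1 (0.0720 to 0.123), and that of Pcyt1a without wild-type stem-like library 2, Cd69-/- stem-like library 2 or either wild-type term-diff library (0.0640 to 0.0762).

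The largest rise was that of Erdr1, named as a regulator of erythroid differentiation. It was at 49.3, 53.8, 33.9 and 56.9 FPKM in wild-type libraries and at 463 and 330 FPKM in Cd69-/- stem-like and 196 and 196 FPKM in Cd69-/- term-diff libraries (2.52 ± 0.22, adjusted p = 0.00164). No wild-type library came near a Cd69-/- one. The files place Erdr1 on the Y chromosome (chrY:90785442-90816465), and whether that position is in the region shared with X was not examined. G530011O06Rik, placed on X (chrX:169975043-169978917) and named after its values were seen, went from at most 0.306 FPKM in wild type to 1.68 to 2.33 FPKM (1.45 ± 0.13, adjusted p = 0.00164). It lies inside Mid1, with which it shares 34.9% of its 76-base stretches, and Mid1 itself was at 0.651 to 1.60 and 2.16 to 3.75 FPKM (0.86 ± 0.16, adjusted p = 0.0674). In all, 45.7% of the stretches of G530011O06Rik occur in Mid1, Gm21748, Gm21860 or Gm21926. Erdr1 was not matched by symbol in GENCODE M21, so its shared stretches were not assessed. How reads were divided among such genes, and whether strand was used, was not given. A pair of transcribed gene models on chromosome 8, 0.117 Mb apart and sharing 19.6% of the stretches of 2610005L07Rik, fell together. 2610005L07Rik was at 26.3 to 29.9 FPKM in wild-type and 12.4 to 14.8 FPKM in Cd69-/- libraries (-1.03 ± 0.09, adjusted p = 0.00164). 6820431F20Rik was at 39.0 to 46.0 and 17.1 to 23.7 FPKM (-1.02 ± 0.11, adjusted p = 0.00623). The shared stretches limit how far they are separate measurements. BC021614 (4.89 to 14.2 FPKM in wild type, 15 to 22.4 FPKM in Cd69-/-, 1.20 ± 0.18) and Fam189b (2.13 to 3.57 and 4.29 to 5.94 FPKM, 0.62 ± 0.10) rose. The call of Fam189b ended without any single library (0.0724 to 0.150) and that of BC021614 without any but wild-type stem-like library 2 (0.0523 to 0.107).

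Each of the 34 genes had the same sign in stem-like and term-diff cells, which the additive model that called them favours, and 17 were larger in stem-like and 17 in term-diff cells. None of the 34 had a subset-dependent difference at an adjusted p of at most 0.05 in the interaction model (limma), and 5 had an unadjusted p under 0.05. These were Cd69 and Klrc3, with the wider gap in stem-like cells, and Klrc2, Klra3 (-1.24 in stem-like, -2.50 in term-diff) and BC021614 (0.80 and 1.60), with the wider gap in term-diff cells. With 2 libraries per group, a difference between subsets that misses the threshold does not show that the subsets respond alike. A gap on this scale depends on the level from which a gene starts. Over all genes, 3 of 9782 (0.0307%) had a subset-dependent difference, against 889 (9.09%) at an unadjusted p under 0.05, and voom on implied fragments gave 0. Of the 34 genes, 20 also differed between the subsets, 8 higher and 12 lower in term-diff cells.

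**Figure D4:**
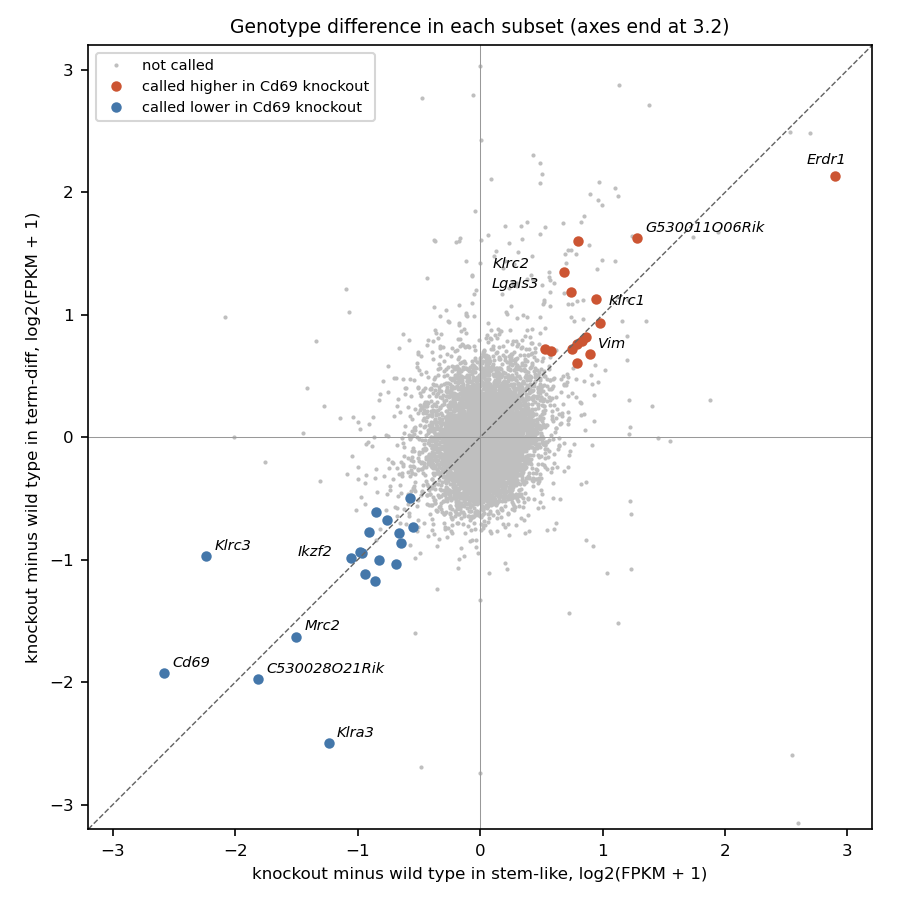
Difference between genotypes in stem-like cells (horizontal) against that in term-diff cells (vertical), log2(FPKM + 1), 1 point per gene tested, with called genes marked and 58 genes (57 of them small RNA) beyond the axes. All 34 called genes lie in the quadrants of equal sign.

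The genes that define stem-like and terminally differentiated T cells were mostly not called between the genotypes. Tcf7 had -0.30 ± 0.13 (adjusted p = 0.444), Slamf6, a surface marker of the stem-like pool, 0.17 ± 0.15 (adjusted p = 0.741), and Ccr7, the lymph node homing receptor, -0.23 ± 0.14 (adjusted p = 0.605). Of 20 stem and progenitor genes tested, 1 rose (Satb1) and 0 fell, 9 were above 0 and the median was -0.06. Il7r, the interleukin-7 receptor, had 0.82 ± 0.16 (adjusted p = 0.0896). Of 21 terminal exhaustion genes, 1 fell (Ikzf2) and 0 rose, 11 were above 0 and the median was 0.12 (-0.01 after quantile normalization). Havcr2 was at 0.987 and 0.847 FPKM in wild-type and 2.03 and 2.29 FPKM in Cd69-/- stem-like, and at 23.3 and 25.8 against 39.7 and 30.8 FPKM in term-diff libraries (0.61 ± 0.11, adjusted p = 0.0573). Pdcd1, which encodes PD-1, had -0.03 ± 0.12 (adjusted p = 0.949), and Tox, the driver of the exhaustion programme, -0.48 ± 0.12 (adjusted p = 0.175), with 61.3 to 81.4 FPKM in wild-type and 48.2 to 53.6 FPKM in Cd69-/- libraries.

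Most cytotoxic effector genes were above 0, and none was called in the fit reported. Of 22 tested, 18 were above 0 with a median of 0.22, beside 4928 of 9782 above 0 and a median of 0.00 over all genes. None passed in limma, with 8 higher and 1 lower at an unadjusted p under 0.05, beside 6.55% higher and 4.53% lower of all genes. Voom on implied fragments called 4 higher and 0 lower, beside 76 higher and 97 lower of 9782 genes. These shares over all genes hold for each list that follows where no other scaling is named. After quantile normalization, 4518 of 9782 genes were above 0 (median -0.01). With equal sums without small RNA, 3516 of 9782 were above 0 (median -0.06). Gzmb, granzyme B, was at 23.6 and 28.4 against 49.3 and 49.5 FPKM in stem-like and 285 and 273 against 440 and 358 FPKM in term-diff libraries (0.71 ± 0.13, adjusted p = 0.0740), with no overlap within a subset, and passed after median-of-ratios scaling (0.0371). The same scaling also passed Csf1 (0.0246), Havcr2 (0.0219) and Itga4 (0.0371). Prf1, the pore-forming perforin, had 0.49 ± 0.12 (adjusted p = 0.175), and Gzmk -0.58 ± 0.17 (adjusted p = 0.264). Of 19 chemokine and cytokine genes, 15 were above 0 (median 0.22, none called by limma, 8 higher and 1 lower unadjusted, 2 higher by voom). Csf1, the macrophage growth factor, had 0.71 ± 0.12 (adjusted p = 0.0548), the chemokines Ccl3 and Ccl4 0.56 ± 0.15 each (adjusted p = 0.220 and 0.237), and Ifng, interferon-gamma, 0.36 ± 0.13 (adjusted p = 0.353). Of 19 inhibitory and costimulatory receptor genes, 14 were above 0 (median 0.20, none called by limma, 6 higher and 1 lower unadjusted, 2 higher by voom). After quantile normalization 12 of these 19 were above 0 (median 0.09), and with equal sums without small RNA 10 (median 0.16). Lag3 and Cd27, both among those higher unadjusted, are neighbours of Cd69, at -4.36 and -4.03 Mb from it. The summed FPKM of the cytotoxic list was 490 and 516 in wild-type and 548 and 599 in Cd69-/- stem-like, and 883 and 835 against 1233 and 1059 in term-diff libraries, without overlap within a subset.

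Metabolic and stress lists gave no call in limma either. Of 18 glycolysis genes, 14 were above 0 (median 0.19, 8 higher and 0 lower unadjusted, 1 higher by voom), led by the glucose transporters Slc2a3 (0.55 ± 0.10, adjusted p = 0.0740) and Slc2a1 (0.38 ± 0.09, adjusted p = 0.158). Among those higher unadjusted, Slc2a3, Tpi1 and Gapdh are neighbours of Cd69, at -6.54, -4.46 and -4.11 Mb from it. Whether this position has a part in the list was not tested. Of 35 oxidative phosphorylation genes 27 were above 0 (median 0.10, 0.05 after quantile normalization and 0.03 with equal sums without small RNA, 1 higher unadjusted, 0 by voom). Those above 0 numbered 17 of 35 in stem-like (median -0.003) and 29 of 35 in term-diff cells (median 0.21). Of these 35 genes, 9 had an unadjusted p under 0.05 in the interaction model (9.09% of all genes), and 0 passed after adjustment. Of 27 interferon response genes 25 were above 0 (median 0.18, 7 higher and 2 lower unadjusted, 1 higher by voom), with Ifi44 at 0.65 ± 0.15 (adjusted p = 0.158). Of 16 heat shock genes 2 were above 0 (median -0.15, 1 lower unadjusted, 0 by voom), with Hsph1 at -0.38 ± 0.14 (adjusted p = 0.384). Of 30 proliferation genes 8 were above 0 (median -0.04, 2 higher unadjusted, 0 by voom), with Ccnb1, a mitotic cyclin, at 0.46 ± 0.11 (adjusted p = 0.170). By subset, 27 of 30 were above 0 in stem-like (median 0.17) and 4 of 30 in term-diff cells (median -0.20), beside 6118 of 9782 (median 0.06) and 4109 of 9782 (median -0.05) over all genes. Their summed FPKM was 318 and 330 against 326 and 408 in stem-like, and 545 and 589 in wild-type against 444 and 502 in Cd69-/- term-diff libraries, lower without overlap. Mki67, a marker of cycling cells, was at 73.9 and 89.9 against 54.1 and 62.2 FPKM in term-diff and at 35.9 and 39.5 against 40.6 and 52.3 FPKM in stem-like libraries. In the interaction model 7 of the 30 had an unadjusted p under 0.05 (9.09% of all genes) and 0 passed after adjustment. Of 29 early T cell receptor response genes 15 were above 0, but 8 after quantile normalization and 9 with equal sums without small RNA (median 0.01, -0.20 and -0.07, 2 higher and 6 lower unadjusted, 3 lower by voom), with the feedback inhibitor Spry2 at -0.73 ± 0.13 (adjusted p = 0.0537, and 0.0433 with equal sums without small RNA). Of 22 cytokine receptor and SOCS genes 10 were above 0 (median -0.03, 4 higher and 1 lower unadjusted, 2 higher and 1 lower by voom). Members of these lists are co-regulated and not independent, and their medians are descriptions.

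**Figure D5:**
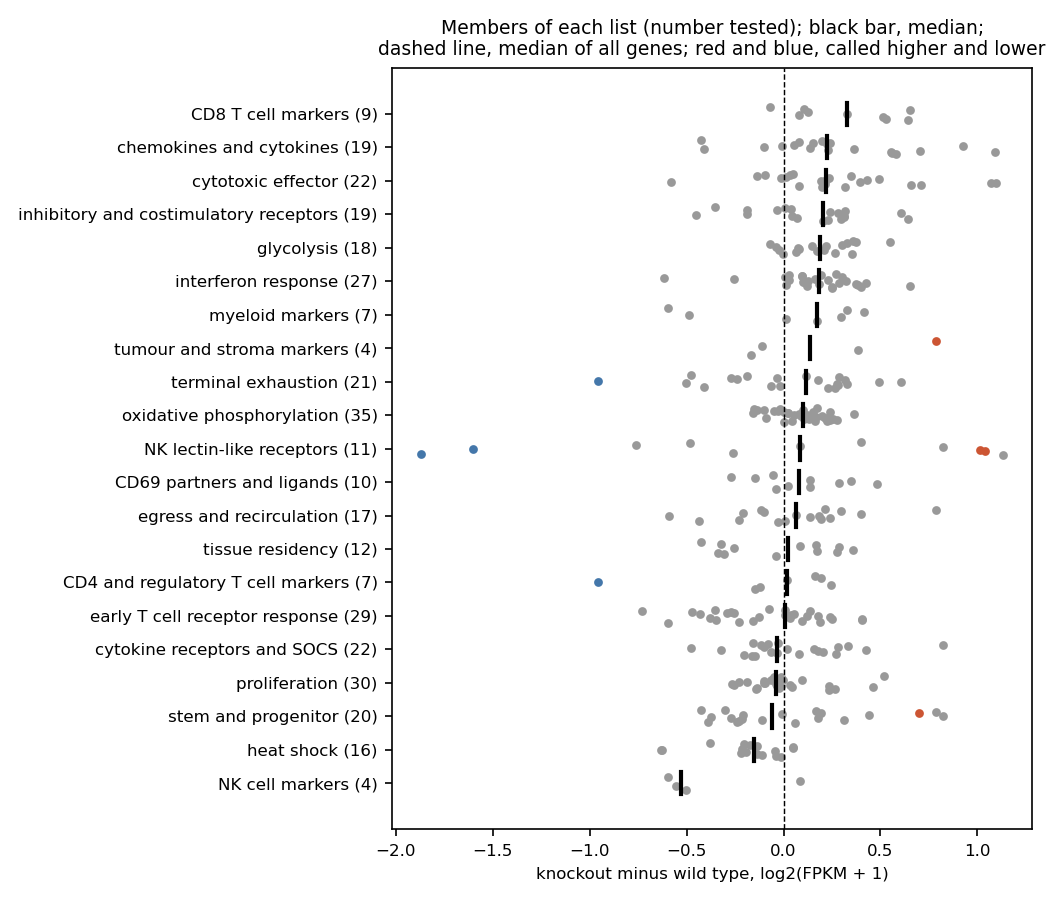
Differences between genotypes (log2(FPKM + 1)) of the tested members of each gene list, 1 point per gene, with the median of each list marked. The highest median is that of the CD8 T cell markers (0.33) and the lowest that of the NK cell markers (-0.53, 4 genes tested). Cytotoxic, chemokine and glycolysis lists have medians of 0.22, 0.22 and 0.19, and the heat shock list -0.15.

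Genes tied to CD69 by function were not called. S1pr1 itself did not reach the filter: it was at 0.614 and 0.897 FPKM in wild-type stem-like and 1.64 and 0.960 FPKM in Cd69-/- stem-like libraries, and at most 0.233 FPKM in term-diff libraries. Of 10 CD69 partner and ligand genes tested, none passed in limma or voom, 3 were higher unadjusted, and the median was 0.08 (-0.04 after quantile normalization). Lgals1, encoding the ligand galectin-1, had 0.48 ± 0.19 (adjusted p = 0.389), and Slc7a5 and Slc3a2, the chains of the amino acid transporter that CD69 associates with, -0.15 ± 0.11 and 0.14 ± 0.14 (adjusted p = 0.678 and 0.777). Of 17 egress and recirculation genes none passed in limma (2 higher and 1 lower unadjusted, 2 lower by voom), and the median was 0.06 (-0.11 after quantile normalization). The integrin chain Itga4 had -0.59 ± 0.11 (adjusted p = 0.0790). Klf2, the factor that drives S1pr1, had 0.37 in stem-like and -0.78 in term-diff cells (-0.21 ± 0.26 over both, adjusted p = 0.818, unadjusted p of the difference 0.0130). In stem-like libraries Klf2 was at 5.60 and 7.28 FPKM in wild-type against 11.8 and 6.07 FPKM in Cd69-/- cells, so the genotypes overlapped there. In term-diff libraries it was at 5.70 and 4.83 against 2.51 and 2.77 FPKM. Of 12 tissue residency genes none passed in limma (0 higher and 3 lower unadjusted, 1 higher by voom), 6 were above 0 and the median was 0.02 (-0.10 after quantile normalization).

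A further 39 genes had an adjusted p between 0.05 and 0.1 and were not called. Among them, chosen after their values were seen, was Ifitm1, an interferon-induced membrane protein, at no more than 0.245 FPKM in wild-type and 0.933 to 9.45 FPKM in Cd69-/- libraries (2.05 ± 0.34, adjusted p = 0.0511). Its relative Ifitm3 was at 1.25 to 2.61 and 4.25 to 10.3 FPKM (1.33 ± 0.23, adjusted p = 0.0523). Both had the higher levels in Cd69-/- term-diff cells. Ier3, an immediate early gene, had 1.12 ± 0.19 (adjusted p = 0.0537) and the chemokine receptor Ccr2 0.86 ± 0.15 (adjusted p = 0.0559).

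Markers of the sorted cells were present, those of B cells, neutrophils and erythroid cells were near 0, and lists of other cell types held single members at higher levels. Cd8a was at 126 to 166 FPKM in all 8 libraries. Of 9 CD8 T cell markers none was called in limma, 8 were above 0 and 4 higher unadjusted, and voom called 3 higher. Their median was 0.33, and -0.12 after quantile normalization. Their summed FPKM was 1034 to 1199 in wild-type and 1211 to 1536 in Cd69-/- libraries, so the groups did not overlap, and the part of this shift in the lists above was not tested. Of the B cell and neutrophil markers none reached the filter, and they summed to at most 1.12 and 1.48 FPKM. Erythroid markers summed to at most 1.37 FPKM, with 0 of 1 tested called. For natural killer cells, Ncr1 was at most 0.375 and Klrb1c at most 0.195 FPKM, while Klre1 was at 14.1 to 36.4, Eomes at 1.32 to 6.84 and Kit at 0.373 to 5.11 FPKM. The NK list summed to 32.6 and 31.1 FPKM in wild-type against 22.3 and 25.6 FPKM in Cd69-/- stem-like, and to 29.4 and 33.2 against 38.5 and 38.5 FPKM in term-diff libraries, so the genotypes were apart in opposite directions, with 0 of 4 tested called in limma (3 lower unadjusted, 1 lower by voom) and most of the sum from Klre1, itself a member of the lectin-like receptor list. Its part in the receptor differences was not tested. Myeloid markers summed to 48.0 to 55.1 FPKM in wild-type and 45.6 to 63.3 FPKM in Cd69-/- libraries, with Csf1r at most 0.418 FPKM, Cst3 and Fcer1g making up most of the sum, and 0 of 7 tested called (1 higher and 2 lower unadjusted, 0 by voom). Of 7 CD4 and regulatory T cell markers tested, Ikzf2 fell and no other passed. Foxp3, the factor that defines regulatory T cells, was at 0.423 and 0.475 FPKM in wild-type and 1.14 and 0.979 FPKM in Cd69-/- stem-like libraries, and at 0.261 and 0.211 against 0.233 and 0.291 FPKM in term-diff libraries. The part of regulatory T cells in the Ikzf2 difference was not tested. Of 12 tumour and stroma markers, 4 were tested and 1, Vim, which T cells also express, rose. The list summed to 75.9 to 133 FPKM in wild-type and 123 to 194 FPKM in Cd69-/- libraries. Igfbp7 was at 2.16 to 20.5 FPKM, Pecam1 at 4.23 to 13.8 FPKM and Acta2 at 3.27 to 6.05 FPKM over the 8 libraries, none of them called, and the other 8 were under 1 FPKM. The part of other cell types in the differences was not tested.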

How the data were processed

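RNA was measured in 8 libraries of sorted AH1 tetramer-positive CD8+ T cells, 2 per genotype and subset. Per the labels' protocols, total RNA went into a low-input SMARTer kit that keeps strand (Pico Input, version v2), and a NextSeq500 gave single-end reads. The authors deposited 1 gene table per library with FPKM values and their confidence limits. Per the submitters' processing notes, the tools were Cufflinks 2.2.1, TopHat 1.3.2, Bowtie2 2.3.4 and bcl2fastq 2.20, with mm10. Annotation, strand setting and the normalising total are not given in the sources used here. Low-input amplification and ties between near-identical genes can both move such values.

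Tables were joined by symbol and locus (23746 entries each). Of these, 3 genes with a value of a status other than OK were left out, and the 9782 that reached 1 FPKM in 2 or more libraries were kept. limma 3.58.1 in R 4.3.3 (trended empirical Bayes) was fitted to log2(FPKM + 1), with a pseudocount of 1, on genotype and subset. Tests were 2-sided with a threshold of 0.05 after Benjamini-Hochberg adjustment over all genes kept. A second model added the genotype by subset term. Implied fragments come from the width of each confidence interval: the gap from the FPKM to the upper limit is taken as 2 Poisson standard errors. They are approximate and cover counting error only. The fit was tested on simulated data.

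Members and lists were chosen with earlier results of these data known. Genes named were Cd69, the called genes with a genotype mean of at least 5 FPKM (at most 15 in each direction), up to 4 members per list, called genes within 10 Mb of Cd69 and a fixed set. One gene of that set is not reported here. Starts in the files count from 0 and are given here from 1. Symbols of called genes were matched to GENCODE M21 for shared stretches (30 of 34), and promoters are from RefSeq, GRCm38.p6. Alternatives were pseudocounts, filters, scalings, other fits, a replicate block, leaving out libraries and, chosen after seeing the data, voom on implied fragments.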

Additional observations from a re-analysis of the deposited data

Results flagged for a closer look

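Over all genes tested, 3 had a genotype difference that depended on the subset at an adjusted p of at most 0.05 in limma's interaction model, and none is among the genes called between genotypes. The values are the difference in term-diff cells minus that in stem-like cells. Defb13, a defensin gene, had 2.01 and was at 2.81 and 3.24 FPKM in wild-type stem-like and 0 in the other 6 libraries. Mir133a-2, a microRNA gene, had 5.89 and was at 54.4 and 62.8 FPKM in wild-type stem-like and 0 in the other 6 libraries. Rnu73b, a small nucleolar RNA gene, had -10.34 and was listed at 0 in both wild-type stem-like libraries and at 385 to 1556 FPKM in the other 6. They rest on at most 1, 1 and 4 implied fragments in any library, and voom on implied fragments called 0 genes.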

How the results depend on the processing

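All 34 called genes kept their direction under every alternative in which they were tested. Against 34 calls there were 73 at a threshold of 0.1, 13 with an absolute log2 difference of at least 1, 9 without the filter (22397 genes tested), 70 with robust empirical Bayes, 59 with library weights, 53 with 4 group means averaged, 8 without the subset term, 173 with voom on implied fragments, 11 without both wild-type libraries of low small RNA share, and 15 to 27 with 1 library left out. The fewest, 15, came without wild-type stem-like library 2. Scaling gave 40 (median of ratios), 32 (quantile) and 34 (equal sums without small RNA), moved the median of all genes by at most -0.06, and 25 of the 34 genes were called under each. With the replicate number as a block 19 were called, all among the 34. Deviations of equal-numbered libraries correlated at -0.30 to 0.15 over the 6 pairs of groups. With 2 libraries a group, such correlations cannot show whether the numbers pair the libraries, and the labels do not say. Cd69 was called under each alternative. Subset-dependent differences, 3 in the fit reported, numbered 8 with a pseudocount of 5, 0 with voom, 17 without both wild-type libraries of low small RNA share and 2 to 9 with 1 library left out. Pdcd1, not called under any alternative, was -0.38 after quantile normalization, ran from -0.0695 to 0.0203 with 1 library left out, above 0 without wild-type stem-like library 2, and was 0.0321 without both wild-type libraries of low small RNA share. The cause was not tested. With 2 libraries a group, small differences are not detectable, and levels under about 1 FPKM rest on few fragments.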

Other observations

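Outside chromosome 6, some called genes were also neighbours, chosen here after their values were seen. On chromosome 19, BC021614, Cnih2, Nudt22 and Ms4a4c all rose and lie within 7.35 Mb. That span held 155 genes tested, of which 91 were above 0 with a median of 0.04, and 1.10% of 364 genes tested on the chromosome were called, against 0.348% of all genes. Mrc2 and Tanc2 on chromosome 11 both fell and start 0.297 Mb apart with no other tested gene starting between them. Sfmbt2, which fell, and Vim, which rose, lie on chromosome 2.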
